A study of Mus musculus with 4 samples.

Results

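The replication-dependent histone genes were examined in MLE-12, an alveolar epithelial line of the mouse that grows continuously in culture. They were picked by symbol from the authors' RPKM table: H1f1 to H1f6, the H2ac, H2bc, H3c and H4c genes with a number, and any gene still carrying a Hist1h to Hist4h name. Of the 14844 genes in that table, 32 met this rule. They comprised 5 genes for linker histone H1, 1 for H2A, 8 for H2B, 8 for H3 and 10 for H4. All 32 were annotated as protein-coding. On mm10, 30 of them lay on chromosome 13, between positions 21715763 and 23764406, and the other 2, H2bc21 and H4c14, lay on chromosome 3.

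Histones H2A, H2B, H3 and H4 form the protein core of the nucleosome, and H1 binds the linker DNA between nucleosomes. The replication-dependent genes for these proteins sit in clusters, mostly lack introns, and are transcribed mainly in S phase to package newly copied DNA. Their mRNAs characteristically end just after a conserved stem-loop, bound by the stem-loop binding protein SLBP, and carry no poly(A) tail. Some genes of the family are also known to yield polyadenylated mRNAs that run past the stem-loop, above all in cells that have left the cell cycle.

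The 4 libraries came from Lingo1 KO-labelled cells 24 hours after scratching, Lingo1 KO-labelled cells without a scratch, wild-type (WT) cells 24 hours after scratching, and WT cells without a scratch, with 1 library per condition. Lingo1 encodes a leucine-rich repeat membrane protein, and the series concerns its part in epithelial wound repair. The labels do not give the allele of the knockout or whether the KO-labelled cells were 1 clone. The libraries were made with a stranded mRNA kit from total RNA.

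Total counts were 48333801 in KO-labelled scratched, 29533746 in KO-labelled unscratched, 27907279 in WT scratched and 26903429 in WT unscratched cells. Lingo1 itself was not lower by 2-fold in the KO-labelled libraries: it stood at 41.3 CPM (counts scaled to library size) in both of them, against 42.7 CPM in WT scratched and 46.7 CPM in WT unscratched cells. The direction of each genotype comparison therefore rests on the labels alone. Of 11 lung epithelial markers, 7 reached 1 CPM, Krt8 and Cdh1 among them, while Sftpa1 and Sftpd were at 0 in every library. Endothelial Cdh5 and leukocyte Ptprc and Adgre1 were also at 0, while Pecam1 and Kdr, the other endothelial markers, had 4 to 15 counts in each library. Of the other leukocyte markers, Cd3e had at most 3 counts and Cd68 was at 1.56 to 1.89 CPM. The 6 fibroblast markers summed to 2652 and 2919 CPM in KO-labelled scratched and unscratched cells, against 2823 and 2888 CPM in WT scratched and unscratched cells, nearly all of it Dcn, while Col1a2 and Col3a1 had at most 6 counts in each. The sums therefore hide the other fibroblast markers. Of the 4 that reached 1 CPM, 3 rose in KO-labelled cells in the additive edgeR fit described below, and 0 fell. Of the 7 lung epithelial markers that reached 1 CPM, 3 also rose in this fit and 0 fell. Among all genes tested, 12.2% rose and 11.0% fell. The fibroblast markers that rose were Col1a1, Pdgfra and Pdgfrb. Col1a1 was at 176 and 197 CPM in KO-labelled scratched and unscratched cells, against 16.4 and 21.4 CPM in WT scratched and unscratched cells. Pdgfra was at 1.93 and 2.3 CPM against 1.14 and 1.3 CPM in the same order of libraries. Pdgfrb had 135 and 67 counts against 1 and 0 counts.

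The 3′ ends are shown first because the stem-loop is the feature that sets these mRNAs apart. The 100 bases after the stop codon in the annotated transcripts of each gene were searched on the sense strand for the 16-base histone stem-loop pattern: GG, 3 free bases, TT, a free base, T, a free base, A, 3 free bases and CC. Of the 26 members with an annotated 3′ UTR of at least 16 bases, 23 held this motif, against 91 of 20981 protein-coding genes (0.434%). The match began 24 to 40 bases after the stop codon. There were 7 different stem-loop sequences, and the most frequent one was shared by 9 members. Below, 9 members cover all 7 forms, with the stem-loop in capitals and its flanks in lower case, 5′ to 3′ in DNA letters.

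H1f2: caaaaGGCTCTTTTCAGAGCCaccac
H1f3: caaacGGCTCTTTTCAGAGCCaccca
H2bc3: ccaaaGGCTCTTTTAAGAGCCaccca
H3c2: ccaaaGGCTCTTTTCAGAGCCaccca
H3c8: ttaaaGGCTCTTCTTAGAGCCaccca
H4c1: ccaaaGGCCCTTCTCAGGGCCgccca
H4c2: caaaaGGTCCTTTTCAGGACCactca
H4c8: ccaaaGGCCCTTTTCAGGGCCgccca
H4c9: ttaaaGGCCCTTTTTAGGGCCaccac

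On GRCm38, the assembly that mm10 names, the capitals lie at chr13:23739512-23739527 for H1f2, chr13:23555787-23555802 for H1f3, chr13:23747203-23747218 for H2bc3, chr13:23752820-23752835 for H3c2 and chr13:23535889-23535904 for H3c8, where H1f2, H1f3, H2bc3, H3c2 and H3c8 are on the plus strand. They lie at chr13:23760800-23760815 for H4c1 and chr13:22040966-22040981 for H4c9 on the minus strand, and at chr13:23757366-23757381 for H4c2 and chr13:23531458-23531473 for H4c8 on the plus strand. In each of these sequences the 6 bases on either side of the loop can pair. The H4 genes shown carry a stem that starts with GGCC or GGTC, whereas the H1, H2B and H3 genes shown carry one that starts with GGCT. No match was found in the annotated 3′ UTR of H1f1, H2bc4 and H2bc21. That of H1f1 is only 48 bases long, while those of H2bc4 and H2bc21 run for 742 and 2192 bases. The other 6 members (H1f5, H2ac15, H2bc13, H2bc15, H3c11 and H4c12) have no annotated 3′ UTR and could not be searched.

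Members were weakly represented in all libraries. They took 0.00396% of the counts in KO-labelled scratched, 0.0023% in KO-labelled unscratched, 0.00135% in WT scratched and 0.0033% in WT unscratched cells. Per length, the median over the 32 members of the mean authors' RPKM (reads relative to gene length and sequencing depth) was 0.62, against 7.17 over all genes of the table. Only 11 members reached 1 CPM in at least 1 library and entered the tests over 12362 genes. All of these but H1f2, H2bc4 and H2bc21 reached it only in KO-labelled scratched or WT unscratched cells, or in both. Counts of calls among the 11 are therefore not free of this selection by the libraries where members were high. The other 21 stayed below 1 CPM in every library. Summed counts over the 4 libraries ranged over the members from 16 to 1269, so single low members are imprecise and sums over a histone type are given beside them. Ratios below are CPM ratios with exact 95% Clopper-Pearson intervals that cover counting error only. Without replicates these intervals do not measure the variation between cultures or library preparations.

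H1f2 had the highest authors' RPKM of the family in every library, at 7.73 in KO-labelled scratched, 7.11 in KO-labelled unscratched, 3.95 in WT scratched and 4.49 in WT unscratched cells. It supplied 30.3% of the counts on members in KO-labelled scratched cells (95% exact binomial interval 28.2% to 32.4%), 48.4% in KO-labelled unscratched (44.6% to 52.2%), 45.7% in WT scratched (40.6% to 50.9%) and 21.3% in WT unscratched cells (18.7% to 24.2%). The H1 sums are therefore given with and without H1f2.

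The family was high in 2 libraries and low in the other 2. KO-labelled scratched and WT unscratched cells held the higher levels, KO-labelled unscratched and WT scratched cells the lower ones. Summed over all 32 members, the level was 39.8 CPM in KO-labelled scratched, 23.0 CPM in KO-labelled unscratched, 13.4 CPM in WT scratched and 32.9 CPM in WT unscratched cells. Member by member, both of the first-named libraries lay above both of the others for 28 of 32 members, an order noticed after the values were seen, against 9.27% of all genes of the RPKM table. The 4 exceptions were H1f2, H2bc4, H2bc8 and H4c9. The order was read from the CPM values alone, also for members with few counts such as H2ac15. In such bulk samples, fewer cells making an mRNA and less of the mRNA per cell cannot be told apart. Whether the libraries differ in their share of RNA without a poly(A) tail, taken up below, was not tested.

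The histone types shared this order but not its size. H3 was at 4.12 CPM in KO-labelled scratched, 0.576 CPM in KO-labelled unscratched, 0.785 CPM in WT scratched and 3.23 CPM in WT unscratched cells. H4 was at 6.99, 2.81, 1.25 and 8.25 CPM in the same libraries. The H1 sum was at 20.5 CPM in KO-labelled scratched, 13.5 CPM in KO-labelled unscratched, 7.38 CPM in WT scratched and 14.0 CPM in WT unscratched cells, so that both unscratched libraries were close. H2B was at 8.05, 5.96, 3.99 and 7.17 CPM in the same libraries, the smallest ratio of the highest to the lowest library among the 4 types with several members. H2A was represented by H2ac15 alone, with 7 counts in KO-labelled scratched, 3 in KO-labelled unscratched, 0 in WT scratched and 8 in WT unscratched cells, which is too few to order the libraries.

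**Figure D1:**
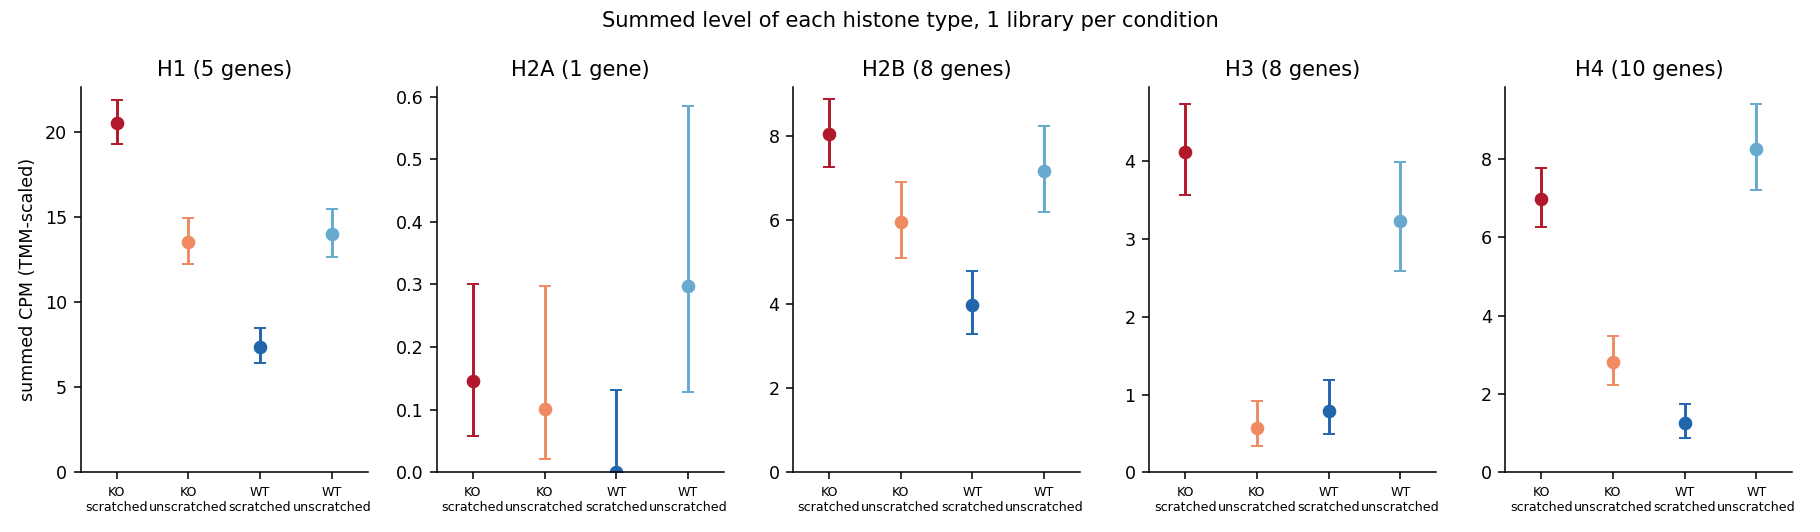
Summed CPM of the members of each histone type in KO scratched, KO unscratched, WT scratched and WT unscratched cells, as labelled (1 library each; linear axes from 0). Points are summed levels and bars exact 95% Poisson intervals. H3 and H4 show the widest separation of the high from the low libraries, while the KO-labelled and WT unscratched libraries nearly touch for H1, at 13.5 and 14.0 CPM.

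Without a scratch, the KO-labelled library held less H3 and H4 mRNA than the WT library. Only 3 of 32 members had a higher CPM in the KO-labelled library, against 50.2% of all genes of the RPKM table. The H3 sum was 0.576 CPM against 3.23 CPM, a ratio of 0.178 (0.0993 to 0.302), and the H4 sum was 2.81 CPM against 8.25 CPM, a ratio of 0.341 (0.262 to 0.441). The H1 ratio was 0.965 (0.836 to 1.11), but 0.344 (0.258 to 0.455) without H1f2. H2B had a ratio of 0.832 (0.674 to 1.03), so its interval held 1. For a call, a gene's log2 CPM difference (prior count 2) had to reach 1 or more in size, and the interval of its ratio had to exclude 1. In the KO-labelled library, 7 of the 11 members tested were called at least 2-fold lower, against 0.914% of all genes tested, and 0 were called higher, against 1.36%. All 7 had passed the filter of 1 CPM only through KO-labelled scratched or WT unscratched cells, or both. Among all genes of the RPKM table, 19 of 32 members were called lower, against 1.61%, and 0 higher, against 2.13%. The median log2 difference over the 32 members was -1.49, and over all genes of the table it was 0.0013.

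After the scratch the order was turned round. All 32 members had a higher CPM in the KO-labelled than in the WT scratched library, as did 52.0% of all genes of the RPKM table. H4 was at 6.99 CPM against 1.25 CPM, a ratio of 5.60 (3.95 to 8.17), and H3 at 4.12 CPM against 0.785 CPM, a ratio of 5.25 (3.37 to 8.57). H1 had a ratio of 2.78 (2.39 to 3.25), or 6.78 (4.80 to 9.87) without H1f2, and H2B one of 2.01 (1.63 to 2.51), or 2.88 (2.16 to 3.88) without H2bc21. Of the 11 members tested, 9 were called at least 2-fold higher, against 1.46% of all genes tested, and 0 lower, against 0.445%. Except for H2bc4, these 9 had passed the filter of 1 CPM only through KO-labelled scratched or WT unscratched cells, or both. Among genes of the RPKM table, 26 of 32 members were called higher, against 2.35%, and 0 lower, against 0.795%. The median log2 difference over the 32 members was 1.87, against 0.0098 for all genes of the table. Both genotype comparisons rest on the KO label, which the Lingo1 counts did not bear out by a 2-fold fall.

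**Figure D2:**
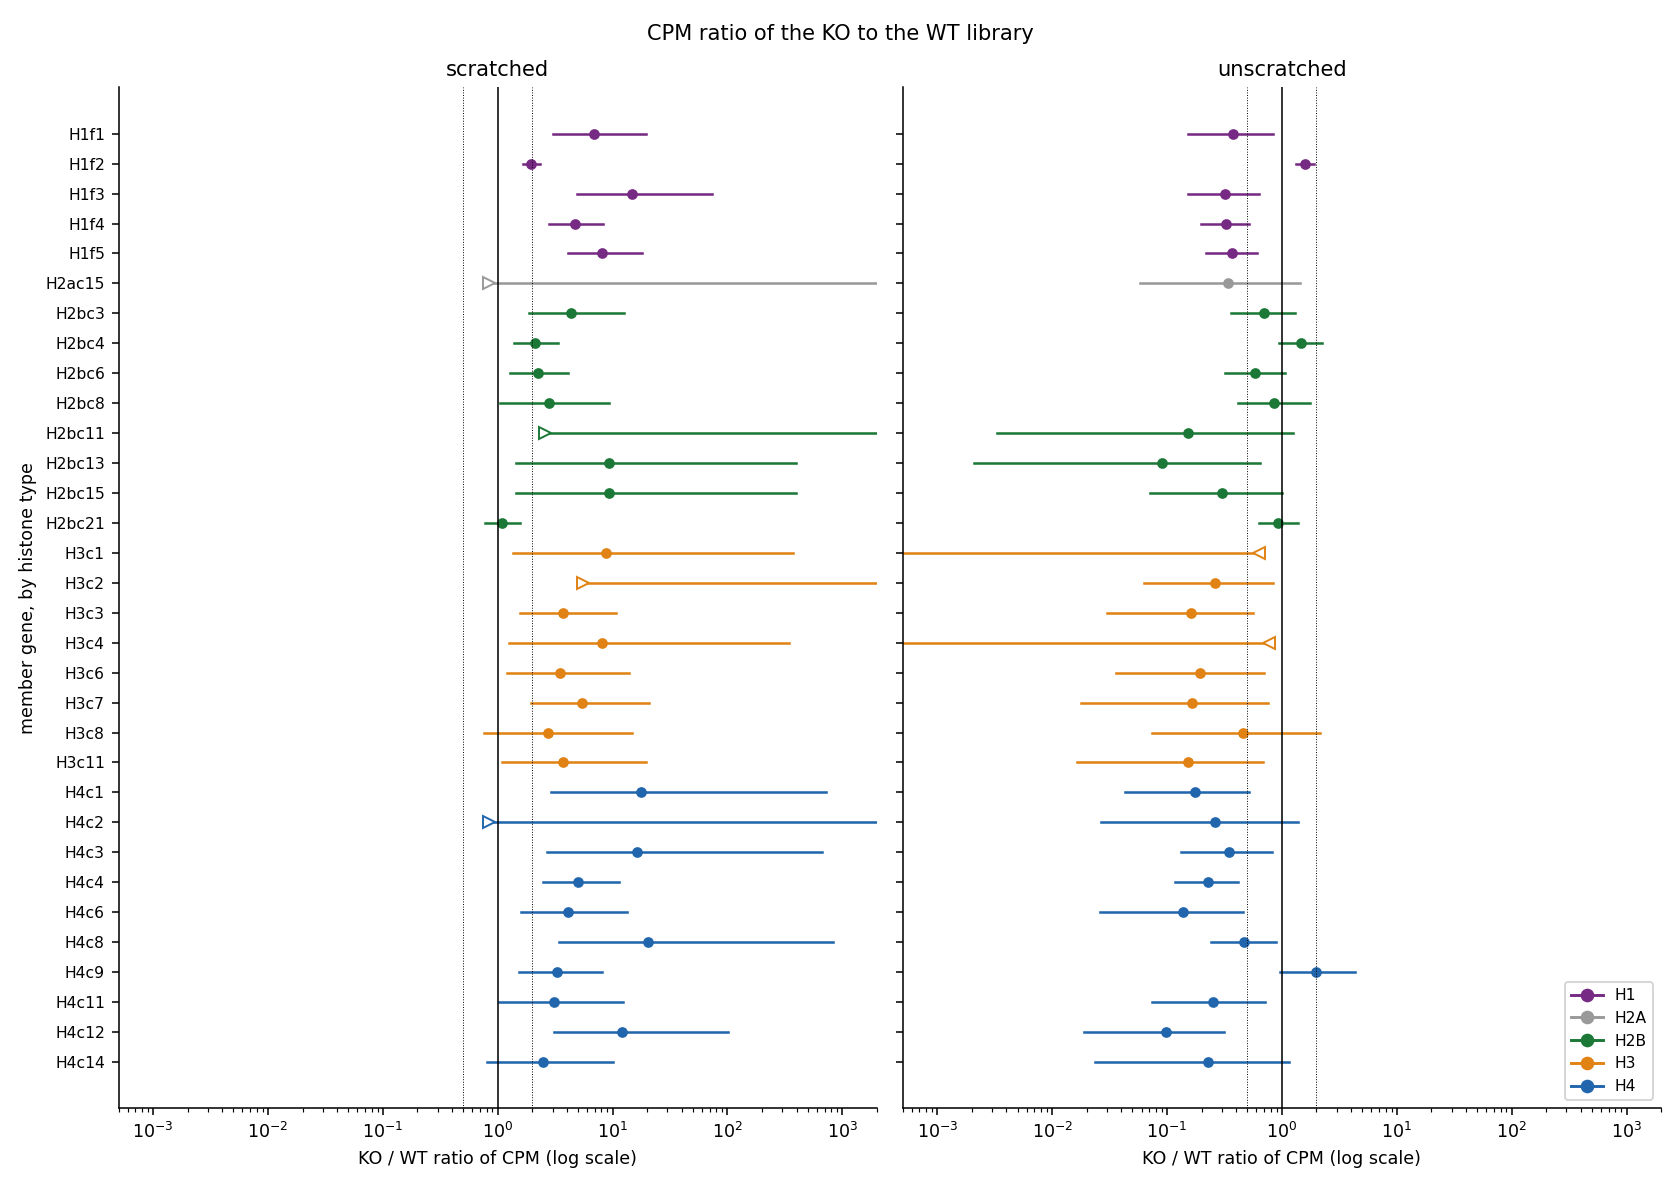
Ratio of CPM in the KO-labelled to the WT library for each of the 32 members, after a scratch (left) and without one (right), on a log axis. Points are ratios, lines exact 95% intervals, and open triangles mark the interval's bound where 1 library had 0 counts. The solid line is a ratio of 1 and dotted lines mark 2-fold. All 32 members lie on the KO side after the scratch, and 3 do without it.

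Linker histone genes other than H1f2 were among the clearest examples. H1f5 was at 2.58 CPM in KO-labelled scratched, 0.813 CPM in KO-labelled unscratched, 0.321 CPM in WT scratched and 2.19 CPM in WT unscratched cells. H1f4 was at 2.83, 0.881, 0.606 and 2.71 CPM in the same libraries. For both genes the high pair stood at more than 2-fold of the low pair. H1f3 was at 1.58 CPM in KO-labelled scratched, 0.407 CPM in KO-labelled unscratched, 0.107 CPM in WT scratched and 1.26 CPM in WT unscratched cells, with only 3 counts in WT scratched cells. H1f1 was at 1.48, 0.305, 0.214 and 0.817 CPM in the same libraries. These 4 H1 genes were called at least 2-fold in each of the 4 pairwise comparisons, lower in KO-labelled unscratched cells and higher in KO-labelled scratched cells than in the matching WT library.

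H1f2 behaved otherwise, with its levels grouped by genotype. It was at 12.1 CPM in KO-labelled scratched, 11.1 CPM in KO-labelled unscratched, 6.13 CPM in WT scratched and 7.02 CPM in WT unscratched cells. The KO to WT ratio was 1.97 (1.66 to 2.34) after the scratch and 1.58 (1.32 to 1.90) without it. The scratched to unscratched ratio was 1.08 (0.946 to 1.25) in KO-labelled and 0.874 (0.707 to 1.08) in WT cells.

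Core histone H4 genes held some of the widest ratios. H4c4, the H4 member with the most counts, was at 1.60 CPM in KO-labelled scratched, 0.474 CPM in KO-labelled unscratched, 0.321 CPM in WT scratched and 2.08 CPM in WT unscratched cells. H4c12 was at 0.853, 0.102, 0.0713 and 1.04 CPM in the same libraries. Its scratched to unscratched ratio in WT cells was 0.0686 (0.00792 to 0.272), from 2 counts against 28. H4c8 was at 0.728 CPM in KO-labelled scratched, 0.542 CPM in KO-labelled unscratched, 0.0357 CPM in WT scratched and 1.15 CPM in WT unscratched cells. Its single count in WT scratched cells, against 31 in WT unscratched cells, gave a ratio of 0.0310 (0.000760 to 0.186). H4c9 departed from the others of its type, with 0.936 CPM in KO-labelled scratched, 0.881 CPM in KO-labelled unscratched, 0.285 CPM in WT scratched and 0.446 CPM in WT unscratched cells. Like H1f2, it was higher in both KO-labelled libraries than in both WT libraries.

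Among the H3 genes, all 8 followed the shared order and none reached 1 CPM. H3c3 had 38 counts in KO-labelled scratched, 3 in KO-labelled unscratched, 6 in WT scratched and 17 in WT unscratched cells. H3c2 had 37, 4, 0 and 14 counts in the same libraries. Against the floor of 3 counts, H3c2 was at least 7.19-fold higher in KO-labelled than in WT scratched cells, and at least 4.86-fold lower in WT scratched than in WT unscratched cells. These bounds leave out the counting error of the 37 and 14 counts, with which the 95% exact limits were 5.56-fold higher and 3.46-fold lower. H3c7 had 37 counts in KO-labelled scratched, 2 in KO-labelled unscratched, 4 in WT scratched and 11 in WT unscratched cells. H3c1 and H3c4 had 0 counts in KO-labelled unscratched cells.

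The H2B genes differed among themselves. H2bc21, which lies apart from the main cluster, was nearly level, at 2.10 CPM in KO-labelled scratched, 1.86 CPM in KO-labelled unscratched, 1.93 CPM in WT scratched and 2.01 CPM in WT unscratched cells. H2bc4 was at 2.12, 1.999, 0.999 and 1.37 CPM in the same libraries, again higher in both KO-labelled libraries. H2bc6 followed the shared order at 1.35 CPM in KO-labelled scratched, 0.678 CPM in KO-labelled unscratched, 0.606 CPM in WT scratched and 1.15 CPM in WT unscratched cells. H2bc6 and H1f4 overlap on the same strand, so that reads in the overlap cannot be assigned to 1 of them with certainty. Copies within the family are also close in sequence: a median of 40.2% of a member's annotated stretches of 50 bases, and up to 87.6%, recur in another gene's transcripts. How such reads were counted is not given in the sources used here, and since some of the shared stretches lie in genes of another type or outside the rule, the type sums can be touched by it as well.

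In WT cells, 0 of 32 members had a higher CPM in the scratched than in the unscratched library, against 48.2% of all genes of the RPKM table. H4 was at 1.25 CPM against 8.25 CPM, a ratio of 0.151 (0.103 to 0.217), and H3 at 0.785 CPM against 3.23 CPM, a ratio of 0.243 (0.145 to 0.391). H1 and H2B were lower too, with ratios of 0.527 (0.443 to 0.626) and 0.557 (0.437 to 0.707). Without H1f2 the H1 ratio was 0.179 (0.121 to 0.257). At least 2-fold lower after the scratch were 7 of the 11 members tested, against 0.777% of all genes tested, and 0 were called higher, against 0.113%. These 7 had likewise passed the filter of 1 CPM only through KO-labelled scratched or WT unscratched cells, or both. Among genes of the RPKM table, 22 of 32 members were called lower, against 1.4%, and 0 higher, against 0.249%.

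In KO-labelled cells the scratched library was the higher one for 31 of 32 members, all but H2bc8, against 48.9% of all genes. H3 was at 4.12 CPM against 0.576 CPM, a ratio of 7.15 (4.35 to 12.5), and H4 at 6.99 CPM against 2.81 CPM, a ratio of 2.48 (1.95 to 3.20). H1 had a ratio of 1.52 (1.35 to 1.71), or 3.52 (2.73 to 4.59) without H1f2, and H2B one of 1.35 (1.13 to 1.62). Called at least 2-fold higher were 6 of the 11 members tested, against 0.154% of all genes tested, and 0 were called lower, against 0.105%. These 6 had also passed the filter of 1 CPM only through KO-labelled scratched or WT unscratched cells, or both. Among genes of the RPKM table, 18 of 32 members were called higher, against 0.424%, and 0 lower, against 0.546%. All scratch statements rest on reading the letter N in the tables' column names as unscratched, since no other condition was labelled.

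**Figure D3:**
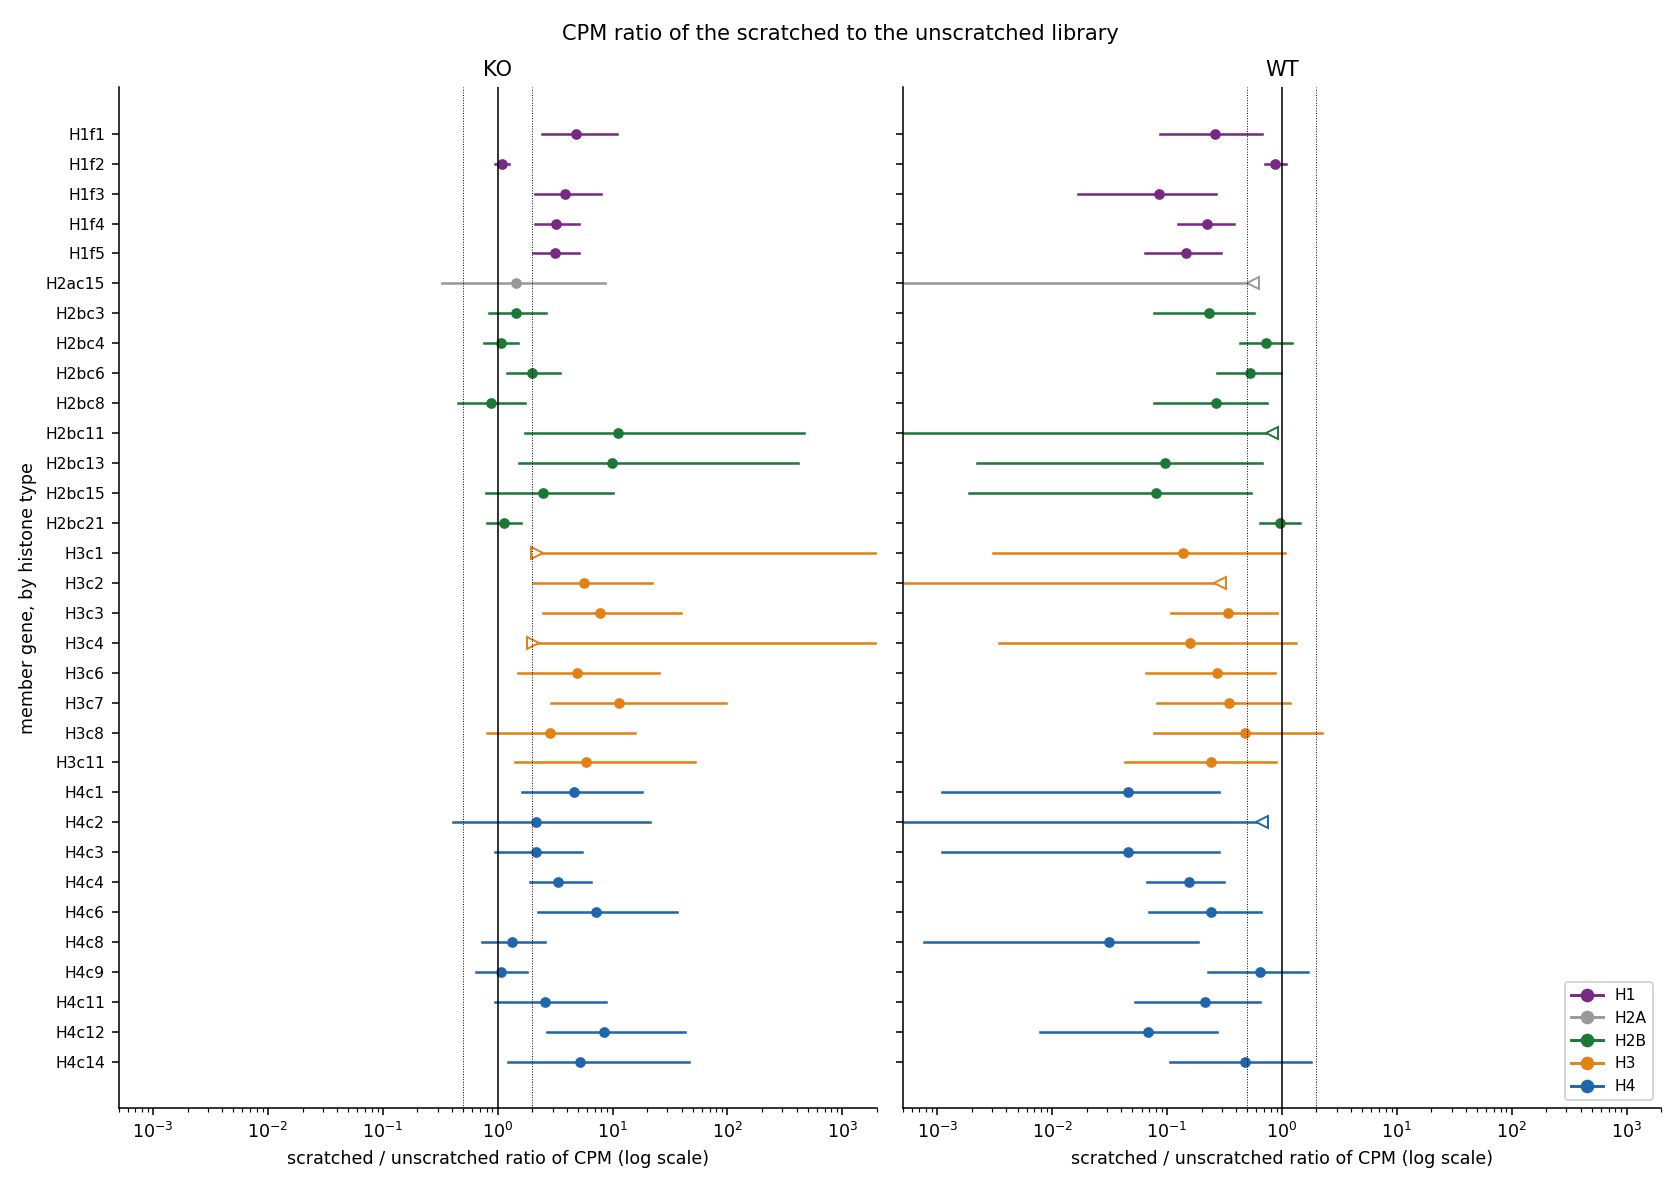
Ratio of CPM in the scratched to the unscratched library for each of the 32 members in KO-labelled (left) and WT (right) cells, on a log axis, drawn with exact 95% intervals and open triangles at the 95% limit where 1 library had 0 counts. Nearly all members lie above 1 in KO-labelled cells and all lie below 1 in WT cells, while H1f2, H2bc4, H2bc21 and H4c9 stay near 1 in KO-labelled cells.

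The difference of the scratch responses sets the ratio of scratched to unscratched in KO-labelled cells against that in WT cells, with 0.5 added to each count and a 95% normal interval from the counts. It was 28.2-fold (14.4 to 55.3) for H3 and 16.2-fold (10.5 to 24.8) for H4. For H1 it was 2.88-fold (2.34 to 3.53), or 19.4-fold (12.5 to 30.0) without H1f2, and for H2B 2.41-fold (1.80 to 3.23). With H1f2 left out, the H1 value thus lay between those of H4 and H3. Of the 11 members tested, 8 were called at least 2-fold higher in this difference, against 0.728% of all genes tested. Among genes of the RPKM table, 26 of 32 members were, against 1.31%. None was called lower, against 0.235% and 0.472% of the genes in these sets. The 8 had passed the filter of 1 CPM only through KO-labelled scratched or WT unscratched cells, or both. The 26 include H2ac15 and H4c2, which had 0 counts in WT scratched cells. Their log2 intervals were 0.038 to 9.05 and 0.229 to 9.46, so these calls rest on few counts. The 4 pairwise comparisons share libraries 2 by 2, so their counts of calls are not independent of each other or of this difference.

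The 6 members that were not called in the difference of responses were H1f2, H2bc4, H2bc8, H2bc21, H3c8 and H4c9. On the log2 scale their differences were 0.31, 0.54, 1.59, 0.23, 2.30 and 0.69, in that order. Intervals for all 6 held 0, and those of H2bc8 and H3c8, with few counts, reached 3.22 and 4.82. The median over all 32 members was 4.32, against -0.0026 over all genes of the RPKM table.

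Members were then set side by side by what the annotation shows after the stop codon, as a description without a test. All 6 members with no annotated 3′ UTR were called in the difference of responses. Of the 9 members with a stem-loop and fewer than 100 annotated bases after it, 8 were called, and their median was 4.85 on the log2 scale. Of the 14 with a stem-loop and at least 100 annotated bases after it, 11 were called, with a median of 3.82. H1f2, H2bc8 and H4c9, which were not called, belong to this class, with 840, 155 and 330 annotated bases after the stem-loop. H1f3 belongs to it as well, with 4884 such bases, and its log2 difference was 5.27. H2bc4 and H2bc21, whose long annotated 3′ UTRs held no match in the first 100 bases, were not called, while H1f1, the other member without a match in its annotated 3′ UTR, was called at 4.06 on the log2 scale. Annotated length does not show which ends were present in these cells, and the deposited counts per gene cannot tell ends apart.

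**Figure D4:**
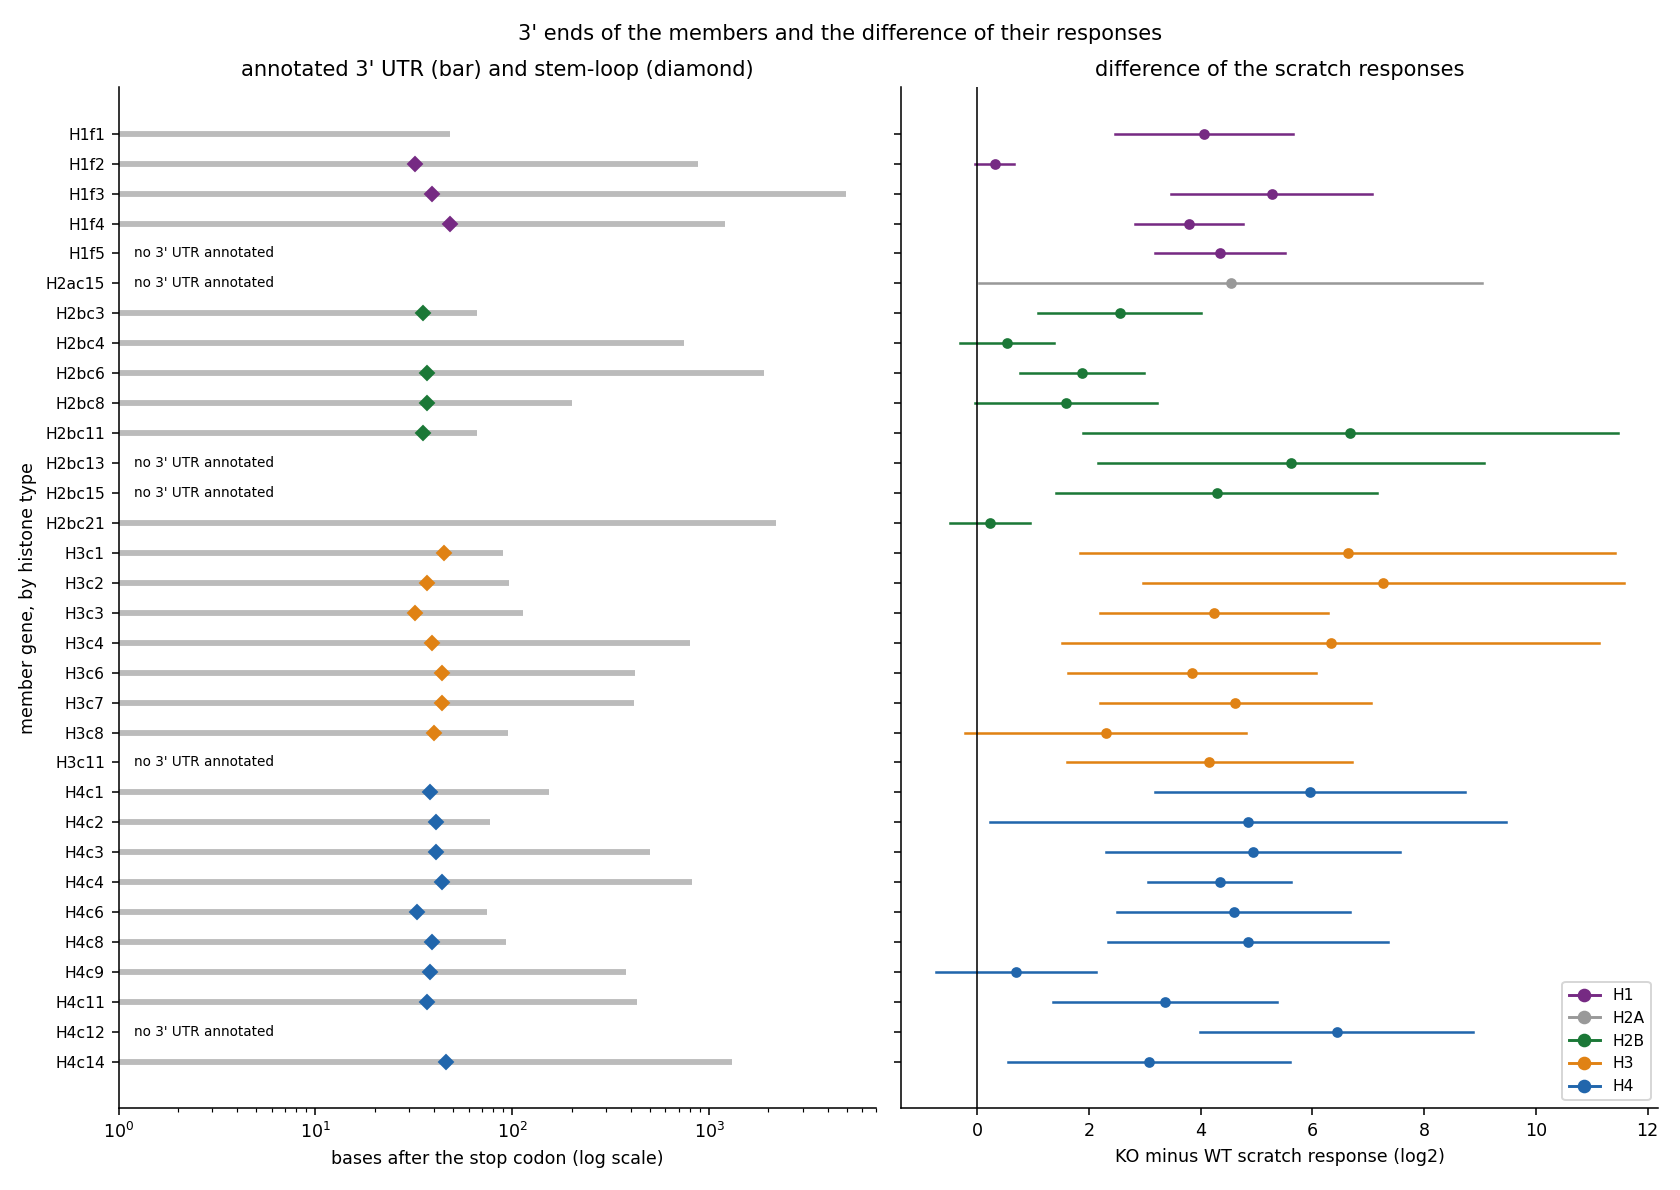
Left, annotated 3′ UTR (grey bar) and the middle of the stem-loop (diamond) of each member, in bases after the stop codon on a log axis. Right, KO minus WT scratch response on the log2 scale with 95% counting intervals. H2bc4 and H2bc21 have long annotated 3′ UTRs with no stem-loop match in the first 100 bases and responses that differ by 0.54 and 0.23. H1f1, also without a match, differs by 4.06. Most members with a stem-loop lie above 2, while H1f2, H2bc6, H2bc8 and H4c9, which have one, lie below 2.

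Promoters could be read for 27 of the 32 members from the RefSeq table on GRCm38.p6, as 28 windows from 250 bases before to 50 bases after the start. They are given because members of different types moved together. The letters CCAAT, searched on both strands like the motifs that follow, occurred in 78.6% of the members' windows and 37.4% of all 32851 windows. TATAAA occurred in 60.7% of the members' windows and 13.6% of all. CCAAT was in every H1, H2B and H3 window, and in 3 of 9 H4 windows. The octamer ATTTGCAT, known from H2B promoters, was in 3 of 7 H2B windows and 1.74% of all windows. AAACACA, known as the H1 box, was in 4 of 5 H1 windows and 7.18% of all. No 2 motifs overlapped in the members' windows. Shown with these motifs in capitals are H1f2, whose levels grouped by genotype, and H1f5 and H4c12, which followed the shared order.

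H1f2: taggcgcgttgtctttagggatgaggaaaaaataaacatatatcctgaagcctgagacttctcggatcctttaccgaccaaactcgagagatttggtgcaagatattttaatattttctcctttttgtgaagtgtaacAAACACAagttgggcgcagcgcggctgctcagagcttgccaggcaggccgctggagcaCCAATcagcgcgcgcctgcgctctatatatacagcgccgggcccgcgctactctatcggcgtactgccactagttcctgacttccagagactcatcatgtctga
H1f5: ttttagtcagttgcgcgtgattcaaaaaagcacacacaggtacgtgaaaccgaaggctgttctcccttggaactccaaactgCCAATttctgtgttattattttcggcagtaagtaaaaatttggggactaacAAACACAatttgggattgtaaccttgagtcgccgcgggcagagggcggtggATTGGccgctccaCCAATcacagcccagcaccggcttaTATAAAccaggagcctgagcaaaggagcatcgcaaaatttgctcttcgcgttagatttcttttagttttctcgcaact
H4c12: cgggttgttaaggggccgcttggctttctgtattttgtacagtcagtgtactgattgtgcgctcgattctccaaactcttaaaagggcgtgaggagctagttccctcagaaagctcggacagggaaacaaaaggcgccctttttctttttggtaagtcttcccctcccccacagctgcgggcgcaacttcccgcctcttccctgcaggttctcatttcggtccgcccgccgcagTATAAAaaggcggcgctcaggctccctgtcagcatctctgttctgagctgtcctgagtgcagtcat

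On GRCm38.p6 these windows are chr13:23738557-23738856 (plus strand) for H1f2, chr13:21780576-21780875 (minus strand) for H1f5 and chr13:21750504-21750803 (minus strand) for H4c12. The windows of H1f2 and H1f5 both hold CCAAT and the H1 box, and those of H1f5 and H4c12 hold TATAAA. A match is only a description of the sequence.

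Several other RNAs that lack a poly(A) tail stood in the same order as the members. Rn7sk, the RNA that holds P-TEFb inactive, was at 46.1 CPM in KO-labelled scratched, 18.7 CPM in KO-labelled unscratched, 12.4 CPM in WT scratched and 47.1 CPM in WT unscratched cells. Rpph1, the RNA subunit of RNase P, was at 16.1, 6.54, 3.10 and 19.0 CPM in the same libraries, and Rmrp, the RNA of RNase MRP, at 4.12, 1.90, 0.464 and 4.42 CPM. Rny3, a Y RNA, was at 1.46, 1.42, 0.285 and 6.28 CPM, nearly level between the KO-labelled libraries. Of the 20 listed RNAs of this kind, 7 were at 0 in all libraries and 8 had both KO-labelled scratched and WT unscratched cells above both other libraries. The share with this order was 9.27% over all genes of the RPKM table. Summed over the list, the level was 69.2 CPM in KO-labelled scratched, 29.4 CPM in KO-labelled unscratched, 16.5 CPM in WT scratched and 78.9 CPM in WT unscratched cells. The genes of Rn7sk, Rpph1, Rmrp and Rny3 lie on chromosomes 9, 14, 4 and 6, apart from the histone clusters on 13 and 3. How far the share of RNA without a poly(A) tail in each library has a part in the histone differences was not tested.

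**Figure D5:**
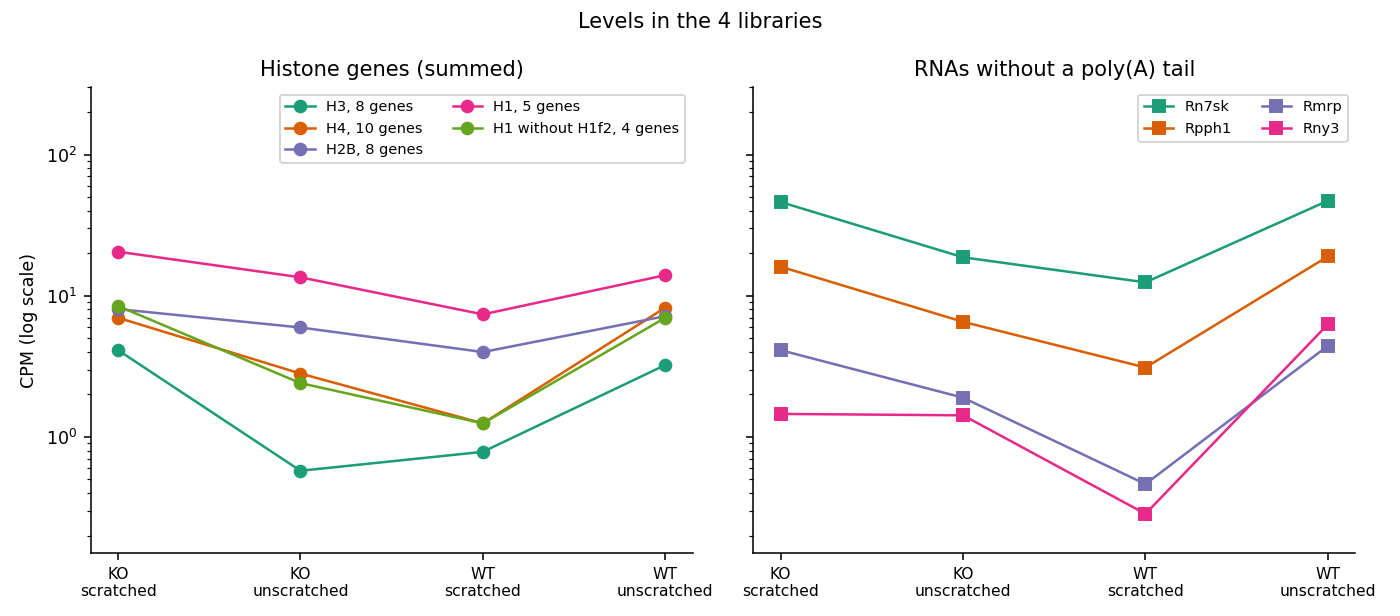
CPM on a log axis in KO scratched, KO unscratched, WT scratched and WT unscratched cells, as labelled, for sums of histone types (left) and for 4 RNAs without a poly(A) tail (right), with 1 library per point. In both panels the outer libraries are high and the inner ones low, with Rn7sk at 46.1 and 47.1 CPM in the outer libraries; the H1 sum with H1f2 and Rny3 depart most from this shape.

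A secondary fit of genotype plus scratch to all 4 libraries used edgeR's quasi-likelihood test with Benjamini-Hochberg adjustment over 12362 genes. It assumes 1 scratch effect for both genotypes and leaves 1 residual degree of freedom, so its p-values compare these libraries and hold no replicate cultures. Of the 11 members tested, 2 rose in KO-labelled against WT cells, while 12.2% of all genes rose. H1f2 rose by 0.82 ± 0.11 on the log2 scale (SE; adjusted p = 0.000254) and was higher in both KO-labelled libraries than in both WT libraries. H2bc4 rose by 0.81 ± 0.25 (SE; adjusted p = 0.0344), but DESeq2 called H1f2 alone, where 4.53% of all genes rose. None of the 11 fell by edgeR, against 11.0% of all genes, or by DESeq2, against 3.28%. For the scratch, 0 of 11 members passed in either direction, against 0.518% of genes in each, and 0 had an unadjusted p under 0.05 by edgeR or DESeq2. For the scratch, DESeq2 gave an adjusted p to H1f2 alone among the 11, and H1f2 was not called. The other members of the 11 had no adjusted p there and could not be called. DESeq2 called 0.154% of all genes higher and 0.138% lower for the scratch. Members with opposite differences in the 2 genotypes have large residuals in this fit.

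Genes that make, process and degrade histone mRNA showed small differences between the libraries. Of 18 genes for histone mRNA transcription and 3′ processing, 1 rose and 4 fell in KO-labelled cells. In the same edgeR fit, 12.2% of all genes tested rose and 11.0% fell. Slbp was at 241 CPM in KO-labelled scratched, 250 CPM in KO-labelled unscratched, 298 CPM in WT scratched and 291 CPM in WT unscratched cells, and fell by 0.26 ± 0.05 on the log2 scale (SE; edgeR adjusted p = 0.00379). Lsm10, a subunit of the U7 particle that cleaves these mRNAs, fell by 0.36 ± 0.08 (SE; edgeR adjusted p = 0.00526). Casp8ap2 and Srrt also fell, and Pou2f1, the octamer-binding factor, rose. Npat, the coactivator of histone gene transcription, was at 79.6 CPM in KO-labelled scratched, 84.7 CPM in KO-labelled unscratched, 85.4 CPM in WT scratched and 84.5 CPM in WT unscratched cells and did not pass. Of 11 histone mRNA decay genes, Exosc10 and Dcp2 fell and none rose, while Eri1, the nuclease that trims the stem-loop end, stayed between 197 and 203 CPM.

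In the S phase list, 2 of 32 genes rose and 18 fell in KO-labelled cells, by at most 0.46 on the log2 scale (E2f2). Ccne1 and Rrm2 were those that rose. In the list for G2 and mitosis, 12 of 22 rose and 0 fell, with Ube2c by 0.49, Cenpf by 0.46 and Tpx2 by 0.44 on the log2 scale. Over all genes tested, 12.2% rose and 11.0% fell in KO-labelled cells. None of the genes in these 3 lists for 3′ processing, S phase and mitosis had both KO-labelled scratched and WT unscratched cells above both other libraries, against 9.27% of all genes of the RPKM table. Of the 11 decay genes 2 did, Tut1 and Upf1, with Upf1 at 190 CPM in KO-labelled scratched, 178 CPM in KO-labelled unscratched, 172 CPM in WT scratched and 182 CPM in WT unscratched cells. For the scratch, 0 genes of any of these lists passed, by edgeR's quasi-likelihood test with Benjamini-Hochberg adjustment. Over all genes tested, 0.518% passed in each direction.

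Replication-independent histone variants, whose mRNAs are known to carry a poly(A) tail, were listed as a comparison together with H2ax, which is known to yield mRNAs with and without one. Of 14 such genes, 11 were tested, 3 rose and 1 fell in KO-labelled cells, against 12.2% and 11.0% of all genes tested. H1f0, the linker variant of cells at rest, was at 497 CPM in KO-labelled scratched, 580 CPM in KO-labelled unscratched, 375 CPM in WT scratched and 417 CPM in WT unscratched cells, and rose by 0.44 ± 0.05 on the log2 scale (SE; edgeR adjusted p = 9.44e-05). Cenpa, the centromeric H3 variant, rose by 0.37 and Macroh2a2 by 0.33, and H2aj fell by 0.55 on the log2 scale. Of 22 histone chaperone genes, 4 rose (Ipo4, Cabin1, Nap1l4 and Nap1l1) and 3 fell (Chaf1b, Mms22l and Rbbp4), against the same 12.2% and 11.0%. Of 8 genes for enzymes that modify new histones, Hdac1 fell.

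Histone genes that the rule left out were checked in the count table. Of 67 genes with a Hist1h to Hist4h name in the reference, those named there as pseudogenes left out, 35 were not members. Of these 35, 13 had 0 counts in every library. H4f16, an H4 gene with another symbol, had the most counts of them, at 1.91 CPM in KO-labelled scratched, 0.440 CPM in KO-labelled unscratched, 0.321 CPM in WT scratched and 2.30 CPM in WT unscratched cells, the order of the members. H2aw, with the next most counts, did not follow it, at 0.915 CPM in KO-labelled scratched, 0.678 CPM in KO-labelled unscratched, 0.785 CPM in WT scratched and 0.409 CPM in WT unscratched cells. Of the H2A genes outside the rule, 19 were in the count table and 6 had 0 counts, so H2A is largely missing from the member list. With the other H2A genes added, the difference of the scratch responses for H2A was 3.42-fold (1.88 to 6.23). H2aw supplied 44 of the 99 counts of that sum in KO-labelled scratched, 20 of 35 in KO-labelled unscratched, 22 of 27 in WT scratched and 11 of 52 in WT unscratched cells. The sum also holds H2af-ps2, a pseudogene by the authors' symbol but not by its reference name. Its counts were 23 in KO-labelled scratched, 7 in KO-labelled unscratched, 3 in WT scratched and 16 in WT unscratched cells.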

How the data were processed

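Messenger RNA sequencing of 4 MLE-12 libraries was analysed from a table of raw read counts and a table of RPKM values, both deposited by the authors. The build was mm10, per the submitters' processing notes. These also list edgeR 3.32.1, HTSeq 0.11.3, STAR 2.7.9a and Trimmomatic 0.39 but assign no step to any tool. Not given in the sources used here are the gene annotation, the strand setting and how reads with several matches were counted. The deposited counts were used as they stand, and the authors' RPKM values gave the member names and the levels per length. The RPKM values cover 14844 of the 46078 genes counted, and none of these had fewer than 12 counts in all. Some genes with more counts are absent from them, such as Hist1h2bk with 20.

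Counts were scaled with TMM factors. Genes of at least 1 CPM in at least 1 library were tested (12362). Intervals are 95%, cover counting error only, and may be too narrow because the reads carry no molecular identifiers. A count of 0 allows up to 3 counts, which is 0.0624 CPM in KO-labelled scratched, 0.102 CPM in KO-labelled unscratched, 0.107 CPM in WT scratched and 0.111 CPM in WT unscratched cells. The additive model was fitted with edgeR 4.0.16 at a false discovery rate of 0.05, and DESeq2 1.42.0 and limma 3.58.1 (on log2 RPKM with a pseudocount of 0.1) were alternatives. The procedures were tested on simulated counts. R 4.3.3, Python 3.11.15, pandas 2.3.3, numpy 2.4.6, scipy 1.17.1 and matplotlib 3.10.9 were used. No genome sequence was used: stem-loops were read from the GENCODE M21 transcripts of GRCm38, in place of the planned search of the genome, and promoters from RefSeq.

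The members, the gene lists and the rules were chosen with earlier results of these data known. Members named with values are those that reached 1 CPM and passed a 2-fold call or the additive fit, and the 3 with the highest mean CPM of each type. H2bc8, H3c1 and H3c4 were named after their values were seen. From each partner list, up to 4 genes per direction were named by size among those that passed, beside textbook members such as Slbp, Npat and Eri1, which were named whatever their values.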

Additional observations from a re-analysis of the deposited data

Results flagged for a closer look

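The scratched to unscratched ratio pointed in opposite directions in KO-labelled and WT cells for 4 histone types. For H3 it was 7.15 in KO-labelled and 0.243 in WT cells, and for H4 2.48 and 0.151. For H1 it was 1.52 in KO-labelled and 0.527 in WT cells, and for H2B 1.35 and 0.557. With 1 library per condition the difference was not tested against replicates. Rn7sk, Rpph1 and Rmrp, RNAs without a poly(A) tail, had ratios in the same directions, for Rn7sk 2.46 in KO-labelled and 0.264 in WT cells. Their part in the histone result was not tested.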

How the results depend on the processing

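Scaling by total counts or DESeq2 size factors, and a prior count of 0.5, left every pairwise member value on its side of the 2-fold call. Leaving out the member with the most counts gave H1 ratios of 6.78 (KO-labelled over WT, scratched), 0.344 (unscratched), 3.52 (scratched over unscratched, KO-labelled) and 0.179 (WT). It gave H2B 2.88 (KO-labelled over WT, scratched) and 0.401 (scratched over unscratched, WT), and log2 differences of responses of 4.27 for H1 and 1.85 for H2B. With members of at least 1 CPM, these H2B ratios were 1.58 and 0.779, the H4 ratio in WT cells 0.1, and the differences of responses 0.652 (H2B) and 4.76 (H4). With the authors' RPKM values the H2B ratios were 3.05 and 0.347. No filter, or all genes of the RPKM table (chosen after seeing the data), gave 26 and 19 member calls between genotypes after and without a scratch, and 18 and 22 for the scratch in KO-labelled and WT cells; a 5 CPM filter left 1 member and 0 calls in each. For genotype the additive fit called 1 member with DESeq2, 1 at 5 CPM, and 3 with no filter and with all genes of the RPKM table, where H4c9 was added. Beyond filters and left-out members, which change the genes summed, the cause was not tested. Leaving out a library was not run as a fit, because no residual degree of freedom is left. No paired analysis was possible because each condition has 1 library. Depth limits the members with 0 to 3 counts in a library, whose ratios have wide intervals.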
